A study of Mus musculus with 2 samples.

Results

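The genes *Ccr7*, *S1pr1*, *S1pr4*, *S1pr5*, *Klf2*, *Cxcr4* and *Cxcr5* set how lymphocytes move between blood, tissue and lymph node, and their transcripts were followed here in leukocytes of the mouse liver. They were chosen by name, as 7 of the 28692 genes in the count tables, and all 7 were found there. CD45+ leukocytes had been sorted by FACS from livers of 6-week-old female mice and captured as 2 libraries. The antibiotics library came from mice that drank water with ampicillin and metronidazole at 1 mg/mL each and vancomycin and neomycin at 0.5 mg/mL each for 1 week, and the vehicle library from mice given vehicle. The number of mice behind each library and their strain are not given in the labels, so that a difference between mice, captures or libraries and an effect of the antibiotics cannot be told apart.

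Lymphocytes that patrol the body enter lymph nodes when CCR7 reads the chemokines CCL19 and CCL21, and leave again when S1PR1 reads sphingosine 1-phosphate, a lipid that is abundant in blood and lymph and scarce in tissue. KLF2 is a transcription factor of quiescent lymphocytes that drives *S1pr1*, and the activation marker CD69 removes S1PR1 from the cell surface. S1PR5 serves the exit of NK cells, S1PR4 is a further receptor of the same lipid in blood cells, CXCR5 guides B cells to follicles through CXCL13, and CXCR4 holds cells near sources of CXCL12, in bone marrow above all. Lymphocytes that stay in a tissue, among them the NKT cells and CXCR6+ group 1 innate cells of the liver sinusoids, are known for low levels of KLF2 and of the exit receptors.

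A barcode was taken as a cell when it held at least 1500 unique molecular identifiers (UMIs, each standing for 1 captured transcript) and under 10% mitochondrial UMIs, which gave 7050 cells in the antibiotics library and 9002 cells in the vehicle library. Median depth was 3331 UMIs per cell with antibiotics and 3515 UMIs with vehicle, out of 29811401 and 41474311 UMIs in all. Cells were put into classes by the UMIs of a few genes, in this order: B cells (at least 2 *Cd79a*, no *Cd3e*), plasmacytoid dendritic cells (pDC, at least 2 *Siglech*), NK cells (at least 1 *Ncr1* and no *Cd3d*, *Cd3e* or *Cd3g*), NKT-like cells (at least 1 *Trac* and 1 *Cxcr6*) and other T cells (at least 2 *Trac*, no *Cxcr6*). The antibiotics and the vehicle library held 1340 and 3016 B cells, 34 and 174 pDC, 99 and 256 NK cells, 4175 and 3514 NKT-like cells and 650 and 786 other T cells, with 752 and 1256 cells outside these gates. Marker lists of B cells, pDC, NK cells and NKT-like cells were highest in their own class in both libraries. That of other T cells (*Cd3e*, *Cd3d*, *Cd3g*, *Cd28*, *Bcl11b*, *Lef1*) was not, with 3186 UMIs per 1000000 UMIs of the class (CPM) in other T cells and 3211 CPM in NKT-like cells of the antibiotics library, and with 3725 CPM and 4095 CPM in the vehicle library, so the class is named here by its gate only. Cell barcodes found in both libraries numbered 93, beside 86.1 for sets of these sizes drawn from all barcodes of the kit. Scrublet scored 141 cells of the antibiotics library and 400 cells of the vehicle library as doublets, and these were kept.

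The level of a gene in a class is the sum of its UMIs over all cells of the class, in CPM. A range beside a value is its 95% interval, from exact Poisson limits for levels and their ratios and from Clopper-Pearson limits for shares of cells, and covers counting error only. With 1 library per condition no test between the conditions was possible, and no p-value is given. Levels were compared between classes and libraries for each gene and never between genes, because a 3′ count also depends on how well the end of each transcript is captured.

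To show where their transcripts begin, the promoter windows of *Klf2* and *S1pr5* are printed from RefSeq (GRCm38.p6). RefSeq held windows for 4 of the 7 genes (*Klf2*, *S1pr5*, *S1pr4* and *Cxcr4*). *Klf2* had the largest number of UMIs of the 7 genes. *S1pr5* had the widest spread from its highest to its lowest class in both libraries. Each window runs from 250 bases before to 50 bases after the RefSeq start, 5′ to 3′ on the strand of the gene. Gene positions are those of GENCODE, whose *Klf2* start lies upstream of the RefSeq one. *Klf2* lies at chr8:72319033-72321656 on the plus strand, with its window at chr8:72318812-72319111. *S1pr5* lies at chr9:21242912-21248443 on the minus strand, with its window at chr9:21248394-21248693. Capitals mark CACCC (or GGGTG, its form on the other strand), the core of sites for KLF factors, and in *Klf2* also a match to the palindromic MEF2 consensus.
Klf2 promoter: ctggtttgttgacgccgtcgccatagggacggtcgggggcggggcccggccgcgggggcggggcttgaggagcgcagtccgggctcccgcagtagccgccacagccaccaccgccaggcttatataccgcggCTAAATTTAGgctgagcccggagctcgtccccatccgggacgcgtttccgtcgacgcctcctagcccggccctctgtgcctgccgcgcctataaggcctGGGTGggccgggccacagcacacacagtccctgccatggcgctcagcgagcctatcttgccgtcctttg
S1pr5 promoter: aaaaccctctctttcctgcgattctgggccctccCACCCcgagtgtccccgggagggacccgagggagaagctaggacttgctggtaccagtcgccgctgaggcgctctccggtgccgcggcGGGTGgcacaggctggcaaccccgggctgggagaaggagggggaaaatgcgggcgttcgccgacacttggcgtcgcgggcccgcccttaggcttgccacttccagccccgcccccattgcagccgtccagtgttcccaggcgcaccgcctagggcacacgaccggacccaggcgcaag
The *Klf2* window held 1 CACCC and 1 MEF2 match, and the *S1pr5* window held 2 CACCC and 0 MEF2 matches. Of 32851 promoter windows of this length, 57.5% held CACCC on either strand and 0.557% held the MEF2 consensus, so the MEF2 match is uncommon and the KLF core is not. The T-box core TCACACC, searched because *S1pr5* is a known target of T-bet in mouse NK cells, was in neither window and in 3.98% of all. The GC box GGGCGG, not capitalized, occurred 2 times in each window and was found in 35.7% of all. These are matches of letters only, searched on both strands and not overlapping each other, and binding was not measured.

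Most of the genes were tied to particular classes. The highest class stood at least 4-fold above the lowest for 6 of the 7 genes in the antibiotics library and for 6 of the 7 in the vehicle library. Over all genes with 50 or more UMIs, 29.1% had such a spread in the antibiotics library and 25.2% in the vehicle library, where classes under 3 UMIs were set to 3 UMIs. *S1pr4* was the gene without it, at 2.09-fold with antibiotics and 1.55-fold with vehicle. *Klf2*, *Ccr7* and *S1pr1* were high in B cells and other T cells, *Cxcr5* in B cells and *S1pr5* in NK cells. Other T cells stood 5.39-fold or more above NKT-like cells for *Klf2*, *Ccr7* and *S1pr1* in both libraries.

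**Figure D1:**
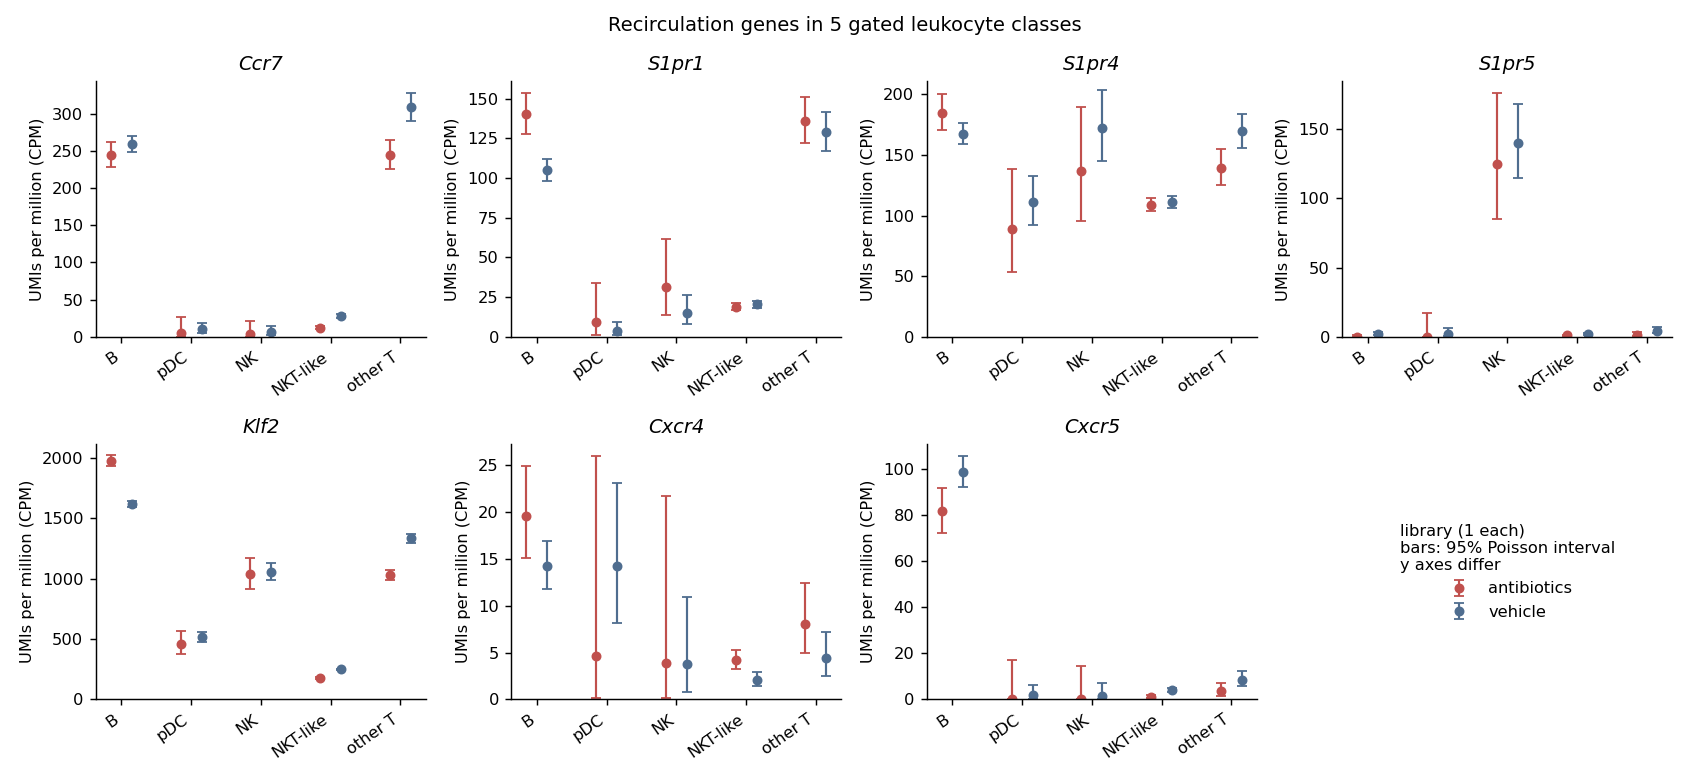
Levels of the 7 genes in 5 gated classes, 1 panel per gene, in CPM of the class on linear axes from 0 that differ between panels. Points are the summed level of 1 library each (antibiotics left, vehicle right) and bars the 95% Poisson interval. *S1pr5* stands above 100 CPM in NK cells only, whereas *S1pr4* lies between 88.7 CPM and 185 CPM in all 5 classes of both libraries.

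*Klf2* was highest in B cells, at 1976 CPM (1929 to 2024) in the antibiotics library and 1617 CPM (1590.4 to 1644) in the vehicle library. Other T cells had 1030.1 CPM (991 to 1071) with antibiotics and 1332 CPM (1294 to 1371) with vehicle, and NK cells had 1037 CPM and 1057 CPM. In B cells the antibiotics library was thus above the vehicle library, in other T cells below it, and in NK cells the intervals overlapped. pDC had 462 CPM with antibiotics and 516 CPM with vehicle. NKT-like cells were lowest in both libraries, at 178 CPM (171 to 184) with antibiotics and 247 CPM (239.8 to 255) with vehicle. B cells stood 11.1-fold (10.6 to 11.6) above NKT-like cells in the antibiotics library and 6.54-fold (6.32 to 6.77) above them in the vehicle library. NK cells, which share the liver sinusoids with NKT cells, stood 5.84-fold (5.13 to 6.62) above NKT-like cells with antibiotics and 4.28-fold (3.97 to 4.60) above them with vehicle. The order of the classes differed between the libraries in 1 place. NK cells and other T cells did not differ beyond their interval with antibiotics (ratio 1.01, 0.884 to 1.14), whereas other T cells were 1.26-fold (1.17 to 1.36) above NK cells with vehicle.

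When each cell was thinned to 1500 UMIs, a *Klf2* UMI was seen in 89.0% of B cells with antibiotics and 86.0% with vehicle, and in 14.6% and 20.6% of NKT-like cells. Without thinning the shares were 94.6% and 95.5% of B cells and 27.2% and 37.9% of NKT-like cells, at a median depth of 2148.5 and 2527 UMIs in B cells and 3640 and 4244 UMIs in NKT-like cells. The NKT-like cells thus held fewer *Klf2* transcripts although they were the deeper cells. In barcodes of 1 to 20 UMIs, which hold free RNA of the suspension, *Klf2* stood at 735 CPM in the antibiotics library and 882 CPM in the vehicle library, above its level in NKT-like cells. The part of free RNA in the NKT-like signal was not measured. Single NKT-like cells reached 55 *Klf2* UMIs in the antibiotics library and 33 in the vehicle library.

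*Ccr7* (chr11:99144196-99155077, minus strand) was high in other T cells and B cells. Other T cells had 245 CPM (226 to 265) with antibiotics and 309 CPM (290.3 to 328) with vehicle, and B cells had 245 CPM (228 to 262) and 259 CPM (248 to 269.8). Other T cells and B cells did not differ beyond the interval in the antibiotics library (ratio 1.00, 0.899 to 1.11), and in the vehicle library other T cells were 1.19-fold (1.11 to 1.28) above B cells. That order turned when the gates were set on counts thinned to 1500 UMIs (log2 ratio of other T to B cells -0.92). Per cell the transcript was more bunched in other T cells, with 2.75 UMIs per positive cell with antibiotics and 2.58 with vehicle and a highest cell of 27 and 26 UMIs, whereas B cells had 1.58 and 1.62 UMIs per positive cell.

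NKT-like cells had *Ccr7* at 12.2 CPM (10.6 to 14.0) with antibiotics and 28.1 CPM (25.6 to 30.8) with vehicle. Other T cells stood 20.04-fold (17.1 to 23.6) above them in the antibiotics library and 10.98-fold (9.84 to 12.3) in the vehicle library. NK cells gave 1 UMI in the antibiotics library and 5 in the vehicle library, and pDC gave 1 and 12, so these classes cannot be ordered against each other. After thinning, 1.34% of NKT-like cells with antibiotics and 2.96% with vehicle had a *Ccr7* UMI (3.11% and 7.85% unthinned). In NK cells, most of which lack this receptor, the thinned shares were 1.01% (0.0256 to 5.50) and 1.56% (0.427 to 3.95) at median depths of 2543 and 2953.5 UMIs, and the NKT-like shares lay inside these intervals. These are wide, from 99 and 256 NK cells. By level, NK cells had 3.90 CPM (0.0987 to 21.7) with antibiotics and 6.24 CPM (2.03 to 14.6) with vehicle. The NKT-like interval overlapped that of NK cells with antibiotics and lay above it with vehicle.

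*S1pr1* (chr3:115710433-115715072, minus strand) was high in the same classes as *Ccr7*. B cells had 140.2 CPM (128 to 153) with antibiotics and 105 CPM (98.2 to 112) with vehicle, and other T cells had 136 CPM (122 to 151) and 129 CPM (117 to 142). B cells and other T cells did not differ beyond the interval in the antibiotics library (B cells over other T cells 1.03, 0.895 to 1.19), and other T cells were 1.23-fold (1.10 to 1.38) above B cells in the vehicle library. That order also turned with gates on thinned counts (log2 ratio of other T to B cells -0.57). Other T cells stood 7.21-fold (6.17 to 8.44) above NKT-like cells with antibiotics and 6.36-fold (5.51 to 7.35) above them with vehicle, where NKT-like cells had 18.8 CPM and 20.3 CPM. NK cells held 8 UMIs in the antibiotics library and 12 in the vehicle library, and did not differ from NKT-like cells beyond counting error in either (ratio of NK to NKT-like cells 1.66, 0.708 to 3.30, with antibiotics and 0.739, 0.378 to 1.31, with vehicle).

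*S1pr4* (chr10:81497747-81500132, minus strand) was spread evenly. In the antibiotics library it had 185 CPM in B cells, 139 CPM in other T cells, 136 CPM in NK cells, 109 CPM in NKT-like cells and 88.7 CPM in pDC. In the vehicle library it had 172 CPM in NK cells, 169.7 CPM in other T cells, 167 CPM in B cells, 111 CPM in pDC and 111 CPM in NKT-like cells. Of neighbors in these orders, only B cells and other T cells differed beyond the interval with antibiotics (ratio 1.33, 1.16 to 1.52) and only B cells and pDC with vehicle (ratio 1.504, 1.252 to 1.820). NKT-like cells gave 57.5% of all *S1pr4* UMIs of cells in the antibiotics library and 39.7% in the vehicle library, beside 20.1% and 14.7% of the *Klf2* UMIs. They made up 59.2% and 39.0% of all cells, so their part of the *S1pr4* UMIs was near their share of cells. Barcodes of 1 to 20 UMIs held *S1pr4* at 142 CPM with antibiotics and 115 CPM with vehicle, within the range of its levels in the classes.

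*S1pr5* was an NK cell transcript, at 125 CPM (85.4 to 176) with antibiotics (32 UMIs) and 139.8 CPM (115 to 168) with vehicle (112 UMIs). B cells had 0 UMIs with antibiotics and 17 with vehicle, pDC 0 and 2, other T cells 3 and 15, and NKT-like cells 15 and 36. NK cells thus stood 139-fold (73.1 to 276) above NKT-like cells in the antibiotics library and 65.1-fold (44.4 to 97.6) above them in the vehicle library. After thinning, 20.2% of NK cells with antibiotics and 18.8% with vehicle held a UMI (24.2% and 30.5% unthinned). The share in NKT-like cells was 0.0719% and 0.285% (0.311% and 0.854% unthinned). In B cells, where this receptor is not expected, it was 0% (0 of 1340 cells, interval 0 to 0.275, where a limit of 3 counts allows 0.224%) with antibiotics and 0.133% (0.0361 to 0.339) with vehicle. The intervals in NKT-like cells (0.0148 to 0.210 with antibiotics and 0.137 to 0.523 with vehicle) overlapped those in B cells, so no expression was read from the NKT-like signal.

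NK cells were uneven. Those with no *Cxcr6* UMI had *S1pr5* at 180.1 CPM (28 UMIs) with antibiotics and 182 CPM (107 UMIs) with vehicle. Those with a *Cxcr6* UMI, the receptor of liver-resident group 1 innate cells, had 39.6 CPM (4 UMIs) with antibiotics and 23.6 CPM (5 UMIs) with vehicle. The ratio of NK cells without to NK cells with a *Cxcr6* UMI was 4.55, 1.59 to 17.8, in the antibiotics library and 7.72, 3.21 to 24.2, in the vehicle library. NK cells with a *Cxcr6* UMI thus held less *S1pr5* in both libraries. *Klf2* was higher on the same side, at 1441 CPM with antibiotics and 1282 CPM with vehicle in NK cells with no *Cxcr6* UMI, and 416 CPM and 433 CPM in those with one (ratio 3.47, 2.48 to 4.94, with antibiotics and 2.96, 2.38 to 3.71, with vehicle). *S1pr4* did not separate them beyond counting error (ratio 1.10, 0.530 to 2.38, with antibiotics and 1.19, 0.798 to 1.83, with vehicle). Of NK cells with an *S1pr5* UMI after thinning, 90.0% (68.3 to 98.8) with antibiotics and 93.8% (82.8 to 98.7) with vehicle also had a *Klf2* UMI. Of NK cells with no *S1pr5* UMI, 51.9% (40.4 to 63.3) with antibiotics and 59.1% (52.1 to 65.9) with vehicle had one. *Eomes*, a factor of circulating NK cells, gave 27 UMIs with antibiotics and 107 with vehicle in NK cells with no *Cxcr6* UMI, and 1 and 8 UMIs in those with one.

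**Figure D2:**
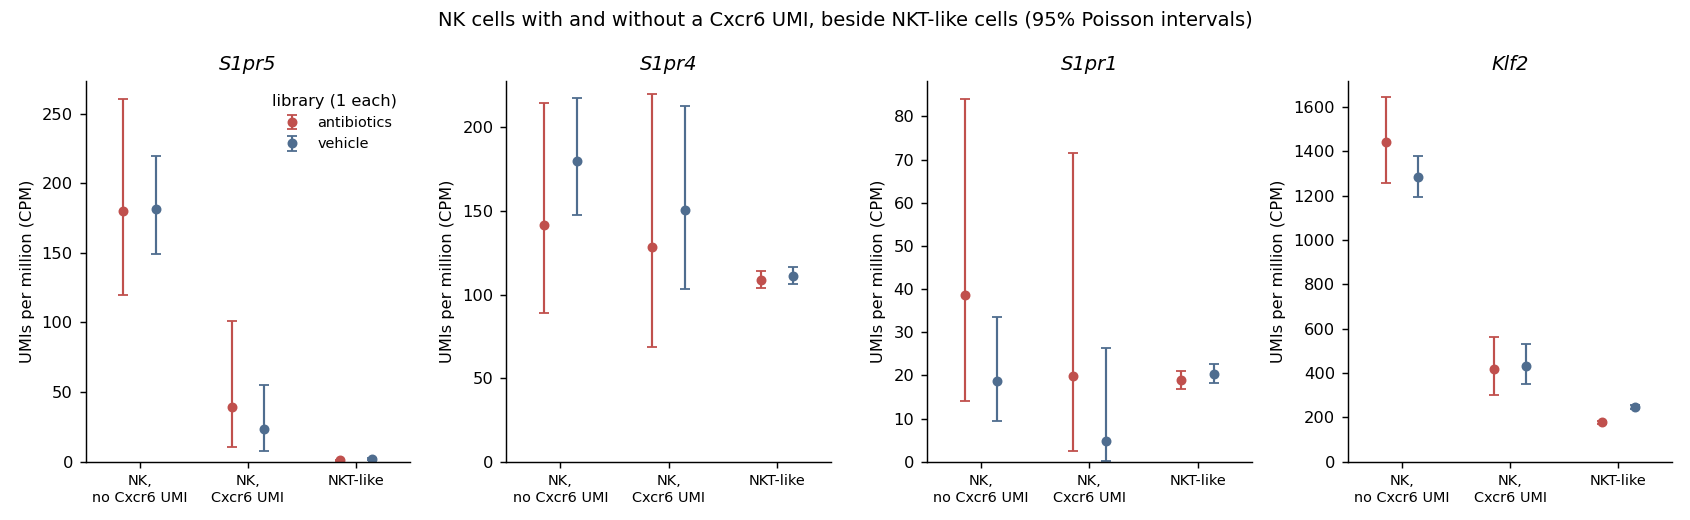
Levels of *S1pr5*, *S1pr4*, *S1pr1* and *Klf2* in NK cells without and with a *Cxcr6* UMI and in NKT-like cells, in CPM on linear axes from 0 that differ between panels (antibiotics left, vehicle right, 1 library each, bars 95% Poisson intervals). *S1pr5* and *Klf2* are lower in each set than in the one to its left in both libraries, and the intervals of *S1pr4* overlap between both sets of NK cells.

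Cells outside the 5 gates held 19 *S1pr5* UMIs in the antibiotics library and 102 in the vehicle library, 27.5% and 35.9% of the *S1pr5* UMIs of all cells. Of these, 17 and 88 UMIs were in cells that held *Nkg7* or *Klrb1c*, transcripts of NK cells and their relatives, which were 73.3% and 66.9% of the cells outside the gates. Cells with *Cd3d*, *Cd3e* or *Cd3g*, which the NK gate shuts out, held 14 and 86 of the UMIs and were 93.2% and 87.0% of these cells. Cells with the monocyte markers *Csf1r* or *Lyz2* held 5 and 35 of the UMIs and were 7.05% and 20.3% of these cells. With antibiotics *S1pr5* stood at 18.6 CPM (6.05 to 43.5) in them and 6.39 CPM (3.49 to 10.7) in the rest. With vehicle it stood at 29.0 CPM (20.2 to 40.3) and 19.1 CPM (14.8 to 24.2). These splits, which overlap, were chosen after the levels had been seen. Over all cells of a library *S1pr5* stood at 2.71 CPM with antibiotics and 7.99 CPM with vehicle. NK cells made up 1.40% of cells with antibiotics and 2.84% with vehicle and held 46.4% and 39.4% of these UMIs. Within NK cells the level differed by less than the counting interval. Outside the gates *S1pr5* was lower with antibiotics, at 7.73 CPM and 21.6 CPM (ratio 0.357, 0.207 to 0.587). It was also lower in NKT-like cells (ratio 0.418, 0.213 to 0.783). The part of each in the difference over all cells was not tested.

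*Cxcr5* (chr9:44511787-44561877, minus strand) was a B cell transcript, at 81.5 CPM (72.2 to 91.7) with antibiotics and 98.8 CPM (92.3 to 106) with vehicle. B cells stood 22.5-fold (11.7 to 49.8) above other T cells in the antibiotics library and 11.6-fold (8.05 to 17.5) above them in the vehicle library, and gave 84.4% and 84.9% of all *Cxcr5* UMIs of cells. Other T cells held 9 UMIs with antibiotics and 29 with vehicle, NKT-like cells 18 and 66, NK cells 0 and 1, and pDC 0 and 2. *Cxcr4* (chr1:128588199-128592293, minus strand) was sparse in every class. B cells led with antibiotics, at 19.6 CPM (15.1 to 24.9) from 66 UMIs. With vehicle, B cells at 14.2 CPM (11.8 to 16.9) from 124 UMIs and pDC at 14.2 CPM from 16 UMIs were level (ratio of pDC to B cells 1.00, 0.556 to 1.69).

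B cells were also split by *Fcer2a*, the CD23 transcript of mature follicular B cells, and by *Vpreb3*, which is high in immature B cells. *Ccr7* was higher in B cells with *Fcer2a* than in those with *Vpreb3* alone, at 266 CPM against 198 CPM with antibiotics (ratio 1.35, 1.13 to 1.60) and 272 CPM against 238 CPM with vehicle (ratio 1.14, 1.02 to 1.27). For *S1pr1*, *S1pr4* and *Cxcr4* the interval of this ratio held 1 in both libraries. *Cxcr5* had a ratio of 1.37, 1.02 to 1.86, with antibiotics and 1.15, 0.965 to 1.39, with vehicle, and *Klf2* of 1.08, 1.02 to 1.14, and 0.985, 0.945 to 1.03. *Ccr7* was thus the gene that set these B cells apart beyond counting error in both libraries.

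Most B cells showed at least 1 of the genes and most NKT-like cells none. After thinning, 70.4% of NKT-like cells with antibiotics and 66.1% with vehicle showed none of the 7, beside 5.30% and 6.10% of B cells. Other T cells showed none in 39.4% (35.6 to 43.3) with antibiotics and 19.3% (16.6 to 22.3) with vehicle, and at least 3 in 12.0% and 14.9%. Of NK cells 30.3% with antibiotics and 25.8% with vehicle showed none, and of pDC 58.8% and 48.3%. The interval of this share did not overlap between the libraries in other T cells and NKT-like cells, and did in B cells, NK cells and pDC.

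**Figure D3:**
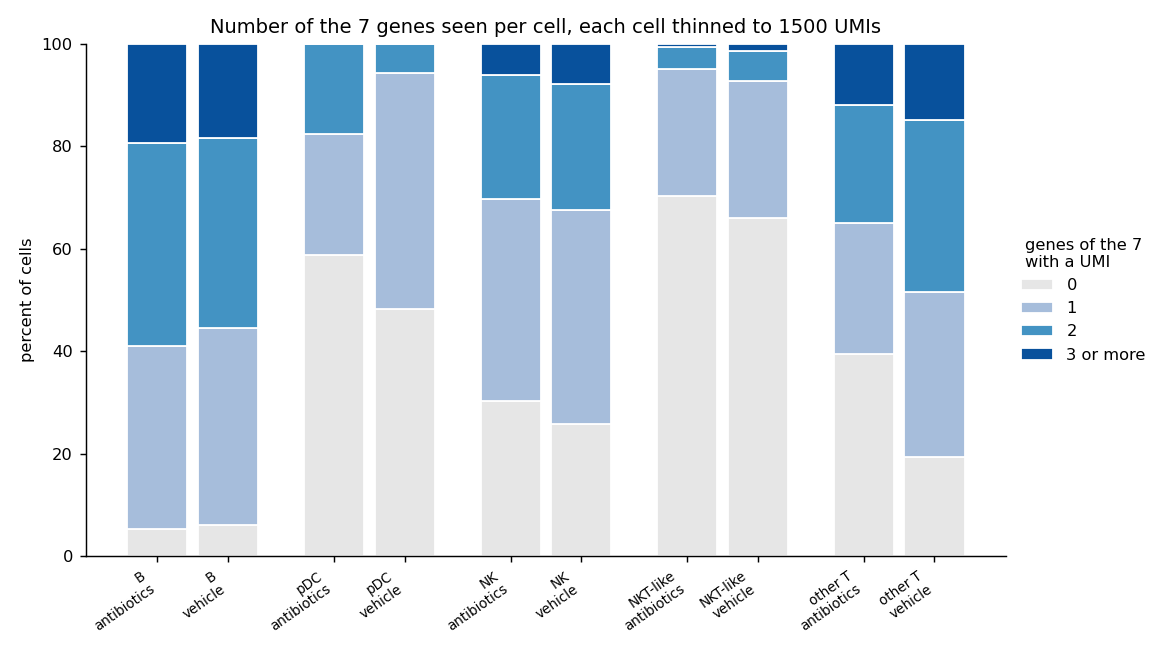
Share of cells in percent in which 0, 1, 2 or at least 3 of the 7 genes had a UMI, each cell thinned to 1500 UMIs, by class and library (antibiotics left, vehicle right). Cells with none make up 5.30% and 6.10% of B cells, 70.4% and 66.1% of NKT-like cells and 39.4% and 19.3% of other T cells.

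Within other T cells the genes came together. A *Ccr7* UMI was seen in 37.0% (31.8 to 42.4) of cells with a *Klf2* UMI and 3.81% (1.98 to 6.56) of cells without in the antibiotics library, and in 38.2% (34.2 to 42.3) and 7.51% (4.35 to 11.9) in the vehicle library. An *S1pr1* UMI was seen in 29.6% with *Klf2* and 3.49% without in the antibiotics library, and in 22.2% and 7.98% in the vehicle library. The intervals of these shares did not overlap. In B cells, nearly all of which held *Klf2*, the step was small, with *S1pr1* in 19.6% (17.4 to 22.0) of cells with *Klf2* and 16.2% (10.7 to 23.2) without in the antibiotics library, and in 15.3% (13.9 to 16.7) and 13.3% (10.2 to 16.9) in the vehicle library. For the pair *Ccr7* and *S1pr1* in B cells the intervals overlapped, with *S1pr1* in 18.6% (14.9 to 22.8) of *Ccr7* positive and 19.5% (17.0 to 22.2) of *Ccr7* negative B cells with antibiotics, and in 13.4% (11.3 to 15.8) and 15.7% (14.2 to 17.3) with vehicle. In NKT-like cells *S1pr1* was seen in 7.22% (5.30 to 9.58) of cells with *Klf2* and 2.19% (1.73 to 2.72) without in the antibiotics library, and in 8.02% (6.15 to 10.2) and 1.29% (0.905 to 1.78) in the vehicle library. Cells of 1 library are not replicates, and these shares describe each library alone.

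Over the 10 levels of 5 classes in 2 libraries, the gene with the pattern most like *Ccr7*, among 4061 genes with at least 50 CPM in 1 of them, was *Foxo1* (Pearson r of log2(CPM + 10) 0.978), which encodes a transcription factor that drives *Klf2* and *Ccr7* in T cells. *Rhoh* (0.935) and *S1pr1* (0.928) came next, and *Gm8369* was also among the closest 5. *S1pr1* was closest to *Crlf3* (0.971), *Foxo1* (0.931), *Ccr7*, *Grap2* and *Pym1*, and *Klf2* to *Rasa3* (0.974), *Fam65b* (0.949), *Ssh2*, *AB124611* and *Osbpl9*. *S1pr5* was closest to *Styk1*, *Cma1*, *Klra8*, *Serpinb9b* and *Klra4* (0.994 to 0.996), all highest in NK cells, where *Klra8* and *Klra4* encode Ly49 receptors. *Cxcr5* was closest to *Fcrl1*, *Pou2af1*, *Rasgrp3*, *Blk* and *Fcmr* (0.994 to 0.998), all highest in B cells. *Cxcr4* was closest to *Mzb1*, *Mgrn1*, *Klhl24*, *Zfp706* and *Ciita* (0.893 to 0.942), and *S1pr4* to *Rp9*, *Cdc25b*, *AB124611*, *Add3* and *Chd1* (0.899 to 0.908). The 5 classes of a library share its reagents and depth, so the 10 levels are not independent and no p is given.

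Between the libraries, 22 of the 35 pairs of a gene and a class held at least 50 UMIs in both libraries together. A pair counted as past the fold at a ratio of antibiotics to vehicle of at least 1.5 or at most 1/1.5, and 1 pair was higher, 3 were lower and 18 were neither. All 4 pairs past the fold were in NKT-like cells, where all 7 genes had enough UMIs. In other T cells *Cxcr5*, *S1pr5* and *Cxcr4* fell under 50 UMIs and were not counted. Their ratios there lay on the same side of 1 as in NKT-like cells. They were 0.427 (0.178 to 0.926) for *Cxcr5*, 0.275 (0.0510 to 0.972) for *S1pr5* and 1.83 (0.892 to 3.85) for *Cxcr4*. The count minimum thus decides in part which classes hold pairs past the fold. Of all genes of NKT-like cells 4.89% were higher and 7.9% lower by the same measure, beside 1 and 3 of the 7. In B cells none of the 6 genes measured passed the fold, beside 6.02% higher and 3.98% lower of all genes. In other T cells it was none of 4, beside 6.91% higher and 5.65% lower of all genes. In NK cells it was none of 3, beside 7.44% and 10.2%, and in pDC none of 2, beside 6.67% and 12.5%. The median gene differed by 0.07 or less on the log2 scale in each class. The number of lower pairs was 1, not 3, without the cells scored as doublets and also with free RNA subtracted, since *Cxcr5* and *S1pr5* in NKT-like cells then fell under the minimum of 50 UMIs. Without the doublets their log2 ratios were -1.57 and -1.04, still past the fold. With free RNA subtracted *S1pr5* stood at -1.35, and *Cxcr5* had no level above 0 with antibiotics, so no ratio was taken.

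**Figure D4:**
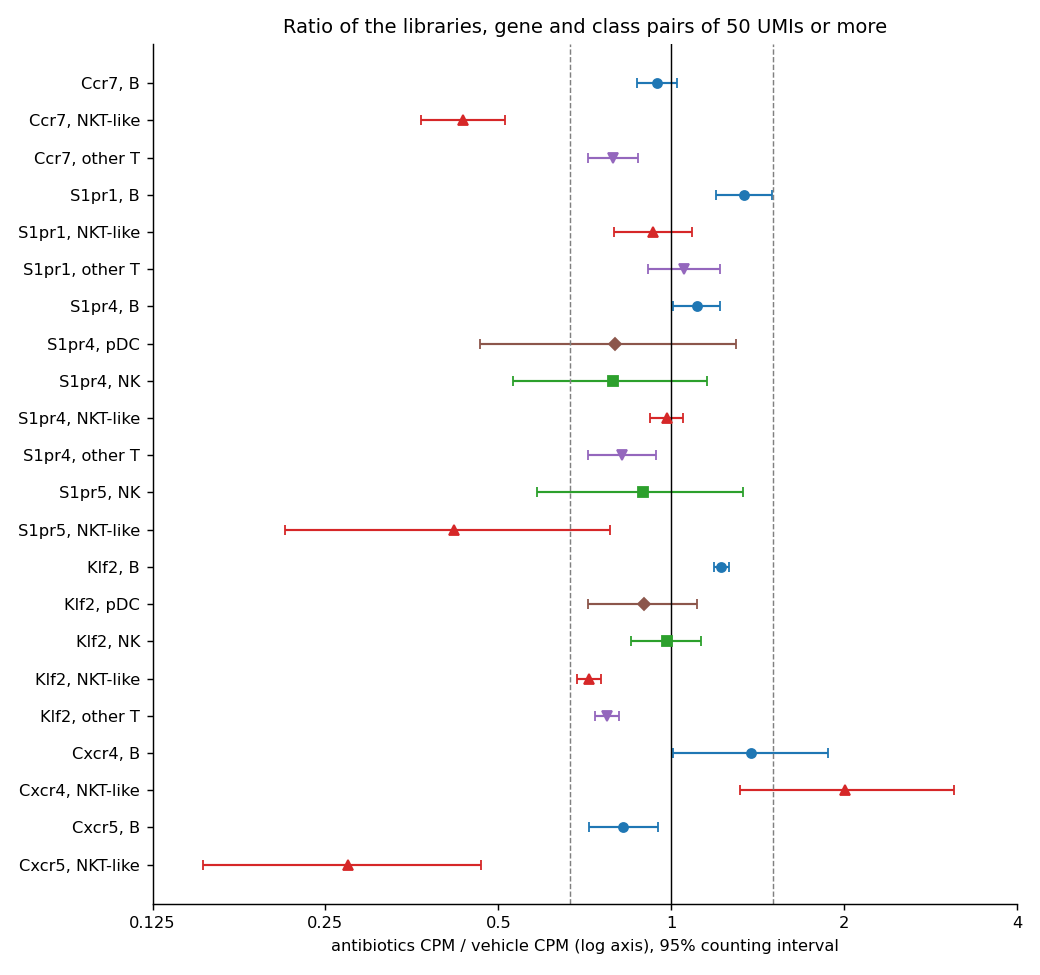
Ratio of the antibiotics to the vehicle level (log axis) for the 22 pairs of gene and class with at least 50 UMIs, with the 95% counting interval. Dashed lines mark 1.5-fold either way. *Ccr7*, *S1pr5* and *Cxcr5* in NKT-like cells lie left of the lower line and *Cxcr4* in NKT-like cells right of the upper line, and *Klf2* lies right of 1 in B cells and left of 1 in NKT-like cells and other T cells.

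In B cells the antibiotics library was higher for *Klf2* (ratio 1.22, 1.19 to 1.26), *S1pr1* (ratio 1.337, 1.194 to 1.496), *S1pr4* (ratio 1.11, 1.01 to 1.22) and *Cxcr4* (ratio 1.38, 1.01 to 1.87), and lower for *Cxcr5* (ratio 0.825, 0.718 to 0.946). The ratio of *Cxcr4* turned at 2500 UMIs per cell (log2 ratio -0.23). *Ccr7* did not differ beyond counting error (ratio 0.944, 0.871 to 1.02). The glucocorticoid-induced gene *Tsc22d3* stood at 863 CPM with antibiotics and 414 CPM with vehicle in these cells, and the heat shock gene *Hspa1a* at 181 CPM and 387 CPM, and their part in these ratios was not tested. *S1pr1* was above vehicle in B cells with *Fcer2a* (ratio 1.45, 1.24 to 1.70) and its interval reached 1 in those with *Vpreb3* alone (ratio 1.25, 0.996 to 1.56). *Klf2* was above vehicle in both sets (ratio 1.29, 1.24 to 1.35, and 1.19, 1.12 to 1.25).

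In NKT-like cells the antibiotics library was lower for *Ccr7*, at 12.2 CPM with antibiotics and 28.1 CPM with vehicle (ratio 0.434, 0.367 to 0.513). It was also lower for *Cxcr5*, with 18 UMIs with antibiotics and 66 with vehicle (ratio 0.274, 0.153 to 0.466), and *S1pr5*, with 15 and 36 (ratio 0.418, 0.213 to 0.783), whose share of cells did not differ from that in B cells beyond the intervals. *Ccr7* stood at 81.3 CPM with antibiotics and 89.2 CPM with vehicle in barcodes of 1 to 20 UMIs, above its level in NKT-like cells, and its log2 ratio in NKT-like cells was -1.54 with free RNA subtracted. *Klf2* was lower short of the fold, at 178 CPM and 247 CPM (ratio 0.719, 0.685 to 0.754). *Cxcr4*, the receptor of CXCL12, was higher, with 70 UMIs with antibiotics and 35 with vehicle (ratio 2.01, 1.32 to 3.10). Its levels in NKT-like cells, 4.19 CPM and 2.09 CPM, were close to or below those in barcodes of 1 to 20 UMIs. These were 3.64 CPM (0.750 to 10.6, 3 UMIs) with antibiotics and 5.17 CPM (1.41 to 13.2, 4 UMIs) with vehicle. After thinning, 0.575% and 0.256% of NKT-like cells held a *Cxcr4* UMI. *S1pr1* (ratio 0.929, 0.795 to 1.09) and *S1pr4* (ratio 0.981, 0.920 to 1.05) did not differ beyond counting error.

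Transcripts of B cells were lower with antibiotics inside the same gate, *Cd79a* at 58.5 CPM with antibiotics and 133 CPM with vehicle, *Cd79b* at 44.9 CPM and 108 CPM and *Ms4a1* at 14.4 CPM and 36.1 CPM. The B cell list of 5 genes summed to 87.1 CPM and 203 CPM with none at 0, and 2.18% of NKT-like cells with antibiotics and 6.32% with vehicle were scored as doublets. When cells with at least 2 UMIs of *Cd79a* and *Cd79b* together were left out, a step added after the values had been seen, 4038 cells with antibiotics and 3154 with vehicle were left. *Ccr7* then stood at 10.2 CPM with antibiotics and 19.7 CPM with vehicle (ratio 0.517, 0.424 to 0.630), and *Klf2* at 158 CPM and 206 CPM (ratio 0.764, 0.724 to 0.806). *Cxcr4* gave 58 UMIs with antibiotics and 21 with vehicle (ratio 2.52, 1.51 to 4.38). *Cxcr5* gave 9 UMIs with antibiotics and 26 with vehicle (ratio 0.316, 0.130 to 0.696) and *S1pr5* 15 and 29 (ratio 0.473, 0.235 to 0.911), both now under 50 in all. All 5 genes thus kept their direction without these cells, with intervals apart from 1. *Cxcr5* in NKT-like cells, at 1.08 CPM with antibiotics and 3.94 CPM with vehicle, lay below its level in barcodes of 1 to 20 UMIs (21.8 CPM and 24.6 CPM).

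In other T cells *Klf2* (ratio 0.773, 0.736 to 0.812), *Ccr7* (ratio 0.792, 0.716 to 0.876) and *S1pr4* (ratio 0.820, 0.716 to 0.939) were lower in the antibiotics library and *S1pr1* did not differ beyond counting error (ratio 1.05, 0.912 to 1.22). *Klrb1c* (NK1.1) was higher in these cells, at 261 CPM with antibiotics and 74.0 CPM with vehicle, as was *Il2rb*, at 284 CPM and 134 CPM. *Nkg7* stood at 844 CPM and 847 CPM. The NK marker list of 6 genes summed to 1204 CPM with antibiotics and 1295 CPM with vehicle, with none at 0. Cells with a UMI of *Klrb1c*, *Nkg7*, *Il2rb* or *Zbtb16* were 74.8% of the class with antibiotics and 66.8% with vehicle. In them *Klf2* had 778 CPM with antibiotics and 1127 CPM with vehicle, and *Ccr7* 189 CPM and 268 CPM. A UMI of any of these genes is called an NK receptor UMI for short, although of them only *Klrb1c* encodes an NK receptor.

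Transcripts of B cells, of erythroid cells and of gamma delta T cells were lower with antibiotics in the other T gate. The B cell list summed to 123 CPM with antibiotics and 226 CPM with vehicle with none at 0, the erythroid list of 2 genes to 4.42 CPM and 850.0 CPM with none at 0 (in NKT-like cells to 5.09 CPM and 139 CPM and in B cells to 1605 CPM and 1194 CPM), and *Trdc*, of the T cell receptor delta chain, stood at 3.22 CPM and 42.1 CPM. Scrublet scored 1.69% of the class with antibiotics and 4.96% with vehicle as doublets. In other T cells with under 2 *Cd79* UMIs the ratio of *Klf2* was 0.767, 0.729 to 0.808, that of *Ccr7* 0.792, 0.712 to 0.881 and that of *S1pr4* 0.842, 0.730 to 0.971. The part of erythroid and *Trdc* transcripts in these ratios was not tested.

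In the 164 other T cells with antibiotics and 261 with vehicle that held no NK receptor UMI, *Klf2* had 1900.5 CPM with antibiotics and 1859 CPM with vehicle (ratio 1.02, 0.946 to 1.10). *Ccr7* had 435 CPM and 413 CPM (ratio 1.05, 0.893 to 1.24), and *S1pr4* 168 CPM and 172 CPM (ratio 0.977, 0.750 to 1.27). *S1pr1* was higher with antibiotics, at 272 CPM and 208 CPM (ratio 1.31, 1.05 to 1.63). This split was added after the values had been seen. In the cells without an NK receptor UMI the intervals of *Klf2* and *Ccr7* thus held 1 and lay above the ratios of the whole class (0.773 and 0.792), whereas that of *S1pr4* held both 1 and its ratio in the whole class (0.820). With vehicle *Klf2* was higher in these cells than in B cells (log2 ratio of B to other T cells -0.20).

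Cells with *Cd4* alone (156 with antibiotics, 166 with vehicle) had *Klf2* at 1291 CPM and 1369 CPM (ratio 0.943, 0.858 to 1.03) and *Ccr7* at 292 CPM and 344 CPM (ratio 0.849, 0.698 to 1.03). Cells with *Cd8a* or *Cd8b1* alone (109 and 266) had *Klf2* at 1496 CPM and 1334 CPM (ratio 1.12, 1.03 to 1.23) and *Ccr7* at 390.2 CPM and 352 CPM (ratio 1.11, 0.929 to 1.32). The cells with neither (378 and 326) had *Klf2* at 739 CPM and 1279 CPM (ratio 0.578, 0.533 to 0.625) and *Ccr7* at 176 CPM and 238 CPM (ratio 0.737, 0.620 to 0.877). The intervals for *Klf2* and *Ccr7* thus lay wholly below 1 in the cells in which neither coreceptor was seen, which were 58.2% of the class with antibiotics and 41.5% with vehicle. In these, *Klrb1c* gave 502 UMIs with antibiotics and 177 with vehicle.

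**Figure D5:**
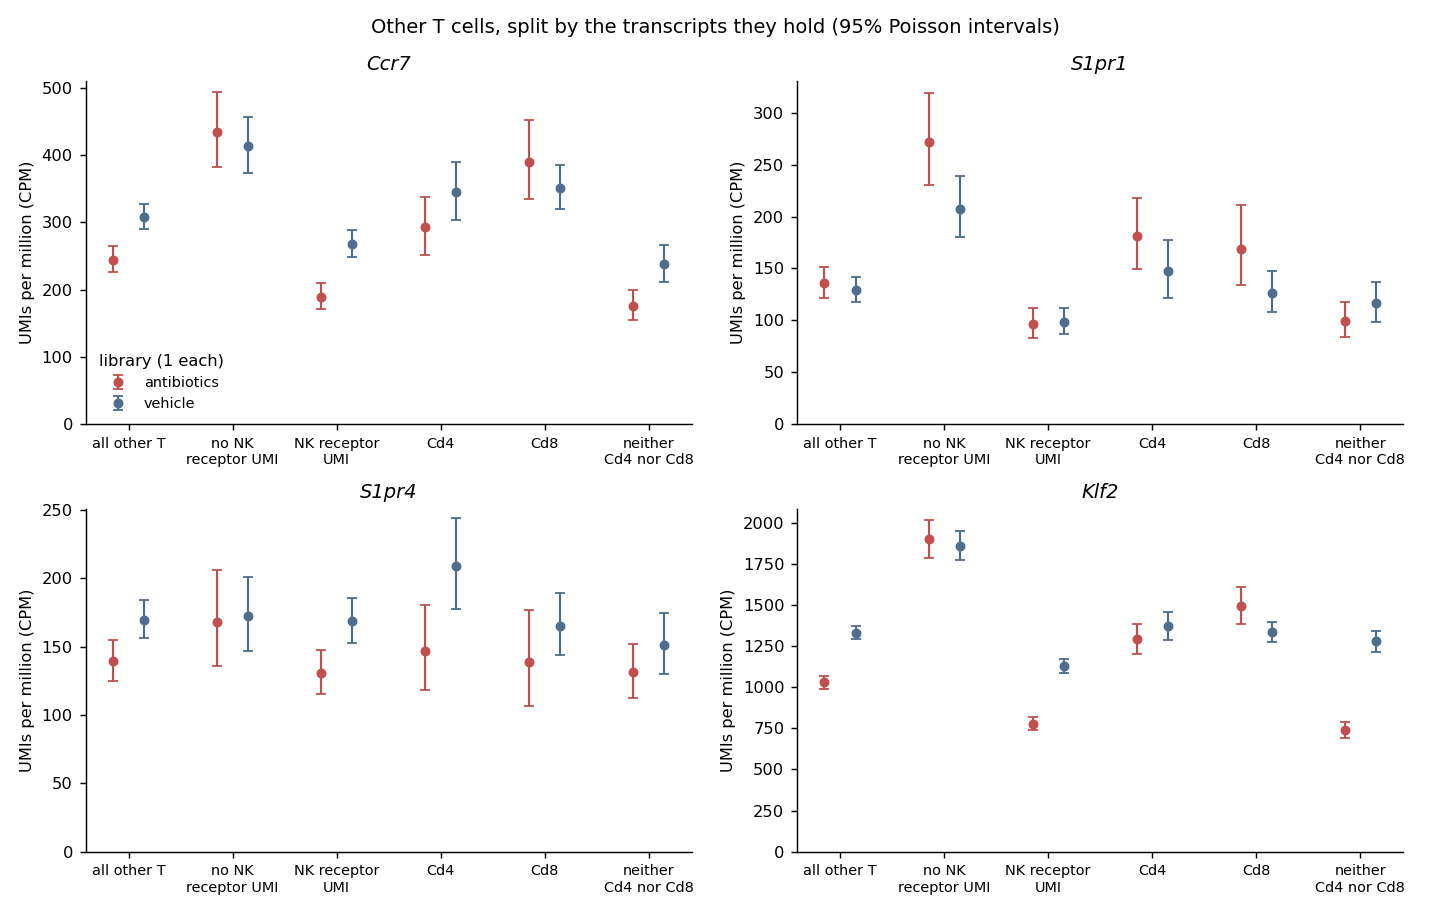
Levels of *Ccr7*, *S1pr1*, *S1pr4* and *Klf2* in all other T cells and in cells split by a UMI of *Klrb1c*, *Nkg7*, *Il2rb* or *Zbtb16* (labeled NK receptor UMI) or of *Cd4* and *Cd8a* or *Cd8b1*, in CPM on linear axes from 0 that differ between panels (antibiotics left, vehicle right, 1 library each, bars 95% Poisson intervals). *Klf2* is at 1900.5 CPM and 1859 CPM in cells without an NK receptor UMI and at 739 CPM and 1279 CPM in cells with neither coreceptor.

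NK cells did not differ between the libraries beyond counting error in *Klf2* (ratio 0.981, 0.852 to 1.13), *S1pr5* (ratio 0.893, 0.583 to 1.33) or *S1pr4* (ratio 0.792, 0.530 to 1.16). *S1pr5* in NK cells stood at a log2 ratio of -1.17 when cells had to hold 2500 UMIs. pDC did not differ beyond counting error in *Klf2* (ratio 0.895, 0.716 to 1.11) or *S1pr4* (ratio 0.797, 0.464 to 1.30). The intervals of *S1pr5* and *S1pr4* in NK cells and of *S1pr4* in pDC still hold a difference of 1.5-fold. The neutrophil markers *S100a8*, *S100a9*, *Retnlg* and *Camp* summed to 7.80 CPM with antibiotics and 648 CPM with vehicle in NK cells, and to 0 CPM and 3564 CPM in pDC, and their part in these ratios was not tested.

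The wider pathway was described by 53 further gene names of lymphocyte recirculation (regulators, integrins and selectin ligands, G protein signaling, and the making and breakdown of sphingosine 1-phosphate), of which 49 were measured. *Grk2* and *Ppap2b*, which were not, are other names of *Adrbk1* and *Plpp3*, which were. *Cd69* is also on the retention list below. In NKT-like cells 40 of the measured genes held enough UMIs, 16 with a ratio above 1 and 24 below 1, and past the fold were none higher and 3 lower. The lower ones included *Itgb7*, a subunit of the gut homing integrin, at 153 CPM with antibiotics and 239 CPM with vehicle (ratio 0.641, 0.610 to 0.674), and *Ccr6* at 18 and 37 UMIs. The median log2 ratio was -0.06, beside -0.02 for all genes of the class.

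In B cells 23 of 41 pathway genes lay above 1 and 18 below, with a median log2 ratio of 0.14 beside 0.07 for all genes. Past the fold were the transcription factor *Klf13*, higher at 218 CPM with antibiotics and 144 CPM with vehicle (ratio 1.51, 1.38 to 1.65), and *Ccr9*, lower at 15 and 86 UMIs. In other T cells 18 of 37 lay above 1 and 19 below, with a median of -0.0031 beside 0.03. Past the fold there were *Lpar6*, a receptor of lysophosphatidic acid, higher at 101.0 CPM and 54.7 CPM (ratio 1.85, 1.52 to 2.24), and *Sphk2*, a kinase that makes sphingosine 1-phosphate, higher at 39 and 32 UMIs. The lower ones in other T cells included *Rgs14* at 61 UMIs with antibiotics and 140 UMIs with vehicle. NK cells had 2 higher and none lower of 27, with a median of -0.02 beside -0.03. These were *Klf3*, with a ratio of 1.503, 0.9926 to 2.240, an interval that holds 1, and *Gna13*, with a ratio of 1.84, 1.00 to 3.29 from 20 UMIs with antibiotics and 34 with vehicle. pDC had none higher and 1 lower (*Cd69*) of 28, with a median of -0.04 beside -0.04. The pathway medians thus stayed near the median gene. Of all genes, 48.1% lay above 1 in NKT-like cells, 59.6% in B cells and 53.8% in other T cells.

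The members with the highest mean level stayed within the fold in NKT-like cells. *Rac2*, a GTPase that drives leukocyte motility, had 1776 CPM with antibiotics and 2094 CPM with vehicle (ratio 0.848, 0.835 to 0.861). *Selplg*, a ligand of selectins, had 424 CPM and 505 CPM, *Gnai2*, the G protein of chemokine and S1P receptors, 309 CPM and 395 CPM, and *Rap1b*, which activates integrins, 348 CPM and 341 CPM. The ligands *Cxcl12* and *Cxcl13* were nearly absent from NKT-like cells, with *Cxcl12* at 1 and 2 UMIs and *Cxcl13* at 0 and 4 UMIs. Neither gave more than 4 UMIs in any other gated class of either library, and cells outside the gates were not examined for them. No level was obtained for the CCR7 ligands CCL19 and CCL21.

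Genes of tissue retention and of cell handling were set beside these values, since *Klf2* and *Cxcr4* transcripts can follow the handling of cells. *Cd69* was lower with antibiotics in NKT-like cells, at 79.7 CPM with antibiotics and 109.9 CPM with vehicle (ratio 0.725, 0.675 to 0.778), and in other T cells, at 107 CPM and 149 CPM (ratio 0.719, 0.617 to 0.835). Of 11 retention genes in NKT-like cells 2 were above and 9 below a ratio of 1 (median log2 ratio -0.37), with *Rgs1*, which damps chemokine receptors, at 150.0 CPM and 227 CPM. In other T cells 4 of 7 were above and 3 below 1. Of 17 immediate early and stress genes, 14 held enough UMIs in other T cells, 2 above and 12 below 1 with a median log2 ratio of -0.55. In NKT-like cells 16 did, 4 above and 12 below with a median of -0.31, and in B cells 14 did, 7 above and 7 below with a median of 0.012. Of all genes, 48.1% lay above 1 in NKT-like cells, 53.8% in other T cells and 59.6% in B cells. Their median log2 ratios were -0.02, 0.03 and 0.07. *Fos* stood at 49.1 CPM with antibiotics and 144 CPM with vehicle and *Hspa1a* at 9.21 CPM and 183 CPM in NKT-like cells. Most immediate early genes were thus lower with antibiotics in the T cell classes in which *Klf2* was lower, and as many lay above as below 1 in B cells, in which *Klf2* was higher, and their part in the *Klf2* values was not tested.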

How the data were processed

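The tools listed in the submitters' processing notes are bcl2fastq and Cell Ranger, on mm10, and their versions are not given in the sources used here. What the authors deposited are whole-number UMI counts per gene and barcode, empty droplets included, from version 2 of the Chromium 3′ chemistry. Cell calls, gates and the levels in CPM are as given in the report, and called cells held 85.5% of UMIs with antibiotics and 85.7% with vehicle. Shares of cells were taken after thinning to 1500 UMIs, which left out no cell. Intervals of ratios were exact and conditional on the sum of both counts, and the floor for a count of 0 was 3 counts per class and library. Doublets were scored by Scrublet in scanpy 1.11.5 at an expected 6% and kept. The work ran in Python 3.11.15 with pandas 2.3.3, scipy 1.17.1, matplotlib 3.10.9 and numpy 2.4.6, and the ratio and its interval were tested on simulated data. Gene identifiers were found in GENCODE vM21 (GRCm38) for 98.8% of genes. Beside the 7 genes, list members were named if they had at least 100 CPM in a class and passed 1.5-fold there, or were among the 4 with the highest mean, and for each gene the 5 with the most similar pattern. *Cd69*, *Ccr6*, *Ccr9*, *Sphk2*, *Rgs14*, *Gna13*, *Eomes*, *Foxo1* and the ligands were named after their values were seen where they fall outside that rule. A few genes that these rules select are counted in the totals but not reported here. The genes, lists and gates were chosen with earlier results of these data known. Tried alternatives were 11 planned changes of cell call, gate, depth, doublets, free RNA and scaling, and 3 gates added after the data had been seen.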

Additional observations from a re-analysis of the deposited data

Results flagged for a closer look

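The ratio of antibiotics to vehicle lay on opposite sides of 1 in different classes for 3 pairs of classes, with the counting intervals apart from 1 on both sides. *Klf2* was higher with antibiotics in B cells (ratio 1.22) and lower in NKT-like cells (0.719) and other T cells (0.773), a gap of 0.77 and 0.66 on the log2 scale. *S1pr4* was higher in B cells (1.11, 1.01 to 1.22) and lower in other T cells (0.820), a gap of 0.43. Its log2 ratio in B cells ran from 0.014 to 0.16 over the alternatives, beside 0.07 for the median gene. In other T cells without an NK receptor UMI the ratio was 0.977 (0.750 to 1.27) for *S1pr4* and 1.02 (0.946 to 1.10) for *Klf2*. The differences between classes were not tested, since each condition had 1 library.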

How the results depend on the processing

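No paired analysis was possible because each condition had 1 library. Of 521 values under an alternative, 454 stayed within the counting interval of the value reported (counts of pairs within 1.5 times), 67 moved beyond it, and the ratio of antibiotics to vehicle of a gene in a class kept its sign in 289 of 307. In B cells *Klf2* ran from 0.22 (median ratio set to 0) to 0.31 on the log2 scale, *S1pr1* from 0.19 to 0.49, *S1pr4* from 0.014 to 0.16 and *Cxcr4* from -0.23 to 0.74.

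For each gene in its leading class with vehicle, the log2 ratio of antibiotics to vehicle moved as follows. *Ccr7* in other T cells (reported -0.34) was -0.65 with gates on thinned counts, -0.49 with thinned counts, -0.49 as the mean over cells, 0.073 without NK receptor UMIs and -0.030 with both added gates. *S1pr1* in other T cells (0.08) was -0.19, -0.14, 0.39 and 0.39 under the same settings but the mean over cells. *S1pr5* in NK cells (-0.16) was -1.17 at 2500 UMIs per cell. *Cxcr4* led in pDC, where the pair held under 50 UMIs, so no ratio was taken.

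For the leading class over the next in the vehicle library, *Ccr7* in other T over B cells (0.25) was -0.92 with gates on thinned counts, 0.14 with thinned counts, 0.39 without ribosomal and mitochondrial genes in the total, 0.68 without NK receptor UMIs and 0.73 with both added gates. *S1pr1* in other T over B cells (0.30) was -0.57 with gates on thinned counts, 0.99 without NK receptor UMIs and 1.02 with both added gates. *S1pr4* in NK over other T cells (0.02) was 0.30 with gates on thinned counts and -0.35 without ribosomal and mitochondrial genes. *S1pr5* in NK over other T cells (4.99) was 6.07 without NK receptor UMIs and 5.98 with both added gates. *Klf2* in B over other T cells (0.28) was 0.19 at 2500 UMIs, 0.37 with gate minimums raised by 1 UMI, 1.16 with gates on thinned counts, 0.14 without ribosomal and mitochondrial genes, -0.20 without NK receptor UMIs and -0.21 with both added gates. *Cxcr4* in pDC over B cells (0.00) was -1.84 with thinned counts.

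Pairs past the fold were 1 higher and 3 lower as reported. Higher pairs were 2 with gates on thinned counts, 2 as the mean over cells and 4 with no count minimum. Lower pairs were 1 with thinned counts, 1 without doublets, 1 with free RNA subtracted, 1 without cells of 2 or more *Cd79* UMIs, 1 with both added gates and 12 with no count minimum. The pairs lost were *Cxcr5* and *S1pr5* in NKT-like cells, which fell under 50 UMIs, while their log2 ratios over all alternatives that gave one ran from -2.47 to -1.57 and from -2.12 to -1.04. Gates on thinned counts call fewer *Cxcr6* UMIs by construction, so that cells of the NKT-like gate can enter the other T gate. Depth limits the 13 pairs under 50 UMIs, among them all of *Cxcr5* and *S1pr5* outside B, NK and NKT-like cells.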
